A study of Mus musculus with 4 samples.

Results

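Tubulins are the protein subunits of microtubules, and 10 of their genes were followed in Sox9-deleted and Sox9-intact basal cells of mouse tail epidermis: the beta tubulins Tubb3, Tubb2a, Tubb2b, Tubb5 and Tubb6, the alpha tubulins Tuba1a, Tuba1b, Tuba4a and Tuba8, and the gamma tubulin Tubg1. They were taken by gene symbol from the probe set annotation. The members were selected on a reading of their log2 differences in this same comparison, so their differences between the genotypes are given as a description, with no test. Of the 10 genes, 9 had at least 1 probe set of their own, and these came to 15 of the 45101 probe sets on the array. Tuba1b was read only at a probe set annotated to it together with Gm5620.

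The cells came from 2 genotypes with 2 Affymetrix 3' expression arrays each. The K14CreER:SmoM2:Sox9cKO group, called Sox9cKO here, carried a conditional deletion of Sox9, which encodes a transcription factor active in stem cells of the hair follicle, and the K14CreER:SmoM2 group, called SmoM2 here, kept Sox9. Both groups expressed SmoM2, an always-on mutant of Smoothened, the transducer of Hedgehog signals, whose expression in epidermis is used as a model of basal cell carcinoma, and in both the recombination was driven by K14CreER, a tamoxifen-dependent Cre under a promoter of basal keratinocytes. Mice of both groups received 2.5 mg of tamoxifen daily on 10 days. Cells that carried integrin alpha 6 but not CD34, a marker of bulge stem cells, were sorted from trypsin-digested tail epidermis 9 weeks after the initial dose. The animals' age and how many animals stood behind an array are not stated in the labels, so p-values measure the spread between these arrays. An exact permutation test on 2 against 2 arrays cannot go below a p of 0.333, so tests on genes outside the members come from limma, fitted across all 18193 genes, with Benjamini-Hochberg adjustment.

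A microtubule is built from dimers of 1 alpha and 1 beta tubulin, and gamma tubulin starts new microtubules at centrosomes and other sites. Mammals carry several alpha and beta genes whose proteins differ mostly in their acidic C-terminal tails, where modifying enzymes act and motors and associated proteins bind. Tubb3, the class III beta tubulin, is widely used as a marker of neurons. Keratinocytes use microtubules for division, for polarity and for transport.

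The arrays had closely similar signal distributions, with medians between 5.45 and 5.48 on the log2 scale. The gap between 3' and 5' probe sets of Actb, a sign of RNA integrity, was 0.75 and 0.52 log2 units in Sox9cKO replicates 1 and 2, and 0.74 and 0.46 in SmoM2 replicates 1 and 2. The mean of the 24 labelling control probe sets was lower in replicate 2 of each genotype, at 9.19 and 7.66 in Sox9cKO and 9.00 and 8.30 in SmoM2. Signal of the Y-linked genes Eif2s3y, Kdm5d and Uty lay between 6.74 and 9.48 in Sox9cKO replicate 1 and SmoM2 replicate 2, and between 3.23 and 3.62 on the other 2 arrays. Of the 3 Sox9 probe sets, 1451538_at read 6.75 and 5.70 in Sox9cKO cells against 10.21 and 10.02 in SmoM2 cells (log2 difference -3.89, SE 0.31, limma adjusted p = 0.00171). The others, 1424950_at and 1433889_at, differed by -0.75 (adjusted p = 0.148) and -0.41 (adjusted p = 0.309). The basal keratinocyte keratins Krt5 and Krt14 were bright. Krt5 read 13.20 and 13.40 in Sox9cKO and 13.20 and 13.41 in SmoM2 cells. Of 7 basal keratinocyte markers, however, 5 were lower and 2 higher in Sox9cKO, with a median difference of -0.41. Their mean signal was 11.61 and 11.70 in Sox9cKO against 11.84 and 12.11 in SmoM2 cells. Cd34 read 3.95 and 3.75 in Sox9cKO and 4.14 and 4.15 in SmoM2 cells. In these bulk samples, fewer cells of a type and less RNA per cell cannot be told apart.

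The stretches of 250 bases before the annotated starts are shown for Tubb3, Tubb2a and Tubb5, the beta tubulins with a window among those searched. Tubb6 and Tubb2b had none. In the values below, Tubb3 was lowest relative to SmoM2 and Tubb2a was lower to a smaller extent at 1 probe set. The main Tubb5 probe set read nearly alike in both genotypes. The sequences are from RefSeq, build GRCm38.p6, and run 5′ to 3′ on the gene's strand, at chr8:123411303-123411552 (+) for Tubb3, chr13:34078009-34078258 (-) for Tubb2a and chr17:35838302-35838551 (-) for Tubb5. Capitals mark the letters of the motifs searched on both strands.
Tubb3: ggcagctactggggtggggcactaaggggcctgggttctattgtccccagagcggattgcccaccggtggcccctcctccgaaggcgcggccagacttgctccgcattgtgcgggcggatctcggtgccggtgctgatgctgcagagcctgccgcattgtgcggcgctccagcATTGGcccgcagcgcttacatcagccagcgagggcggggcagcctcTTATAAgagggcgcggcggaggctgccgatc
Tubb2a: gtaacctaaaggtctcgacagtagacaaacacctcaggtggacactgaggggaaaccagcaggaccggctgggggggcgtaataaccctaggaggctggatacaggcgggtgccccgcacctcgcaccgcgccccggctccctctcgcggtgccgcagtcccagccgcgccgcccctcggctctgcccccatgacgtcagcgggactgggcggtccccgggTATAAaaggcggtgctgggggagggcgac
Tubb5: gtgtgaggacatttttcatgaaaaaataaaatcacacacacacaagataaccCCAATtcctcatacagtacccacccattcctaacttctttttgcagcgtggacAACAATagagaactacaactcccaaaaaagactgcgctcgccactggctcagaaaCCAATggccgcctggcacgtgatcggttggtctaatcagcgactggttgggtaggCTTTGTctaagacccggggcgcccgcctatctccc

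The motifs were the TATA box core TATAA, the CCAAT box CCAAT, the SOX letters AACAAT, the HMG letters ACAAAG and the GLI letters GACCACCCA, and they were chosen with the sequences and the values known. TATAA stood in 22.8% of the 32851 RefSeq windows of this length. Counting the base before the start as -1, it was found at -31 to -26 in Tubb3, where overlapping matches on the 2 strands form the capital run nearest the start, and at -29 to -25 in Tubb2a. The Tubb5 window did not hold it. The CCAAT letters (33.8% of windows) were found on the other strand of Tubb3, at -77 to -73, and at 2 places in Tubb5. AACAAT (9.4% of windows) and ACAAAG (16.5% of windows) each had 1 match in the Tubb5 window and none in those of Tubb3 and Tubb2a. GACCACCCA (0.2% of windows) had none in any of the 7 members in the table, and Tubb2b, Tubb6 and Tubg1 were not among those 7. Only these exact letters were searched. A match, or the lack of one, describes the letters and says nothing about a factor's binding.

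Among the beta tubulins, Tubb3 had by far the lowest signal in Sox9cKO relative to SmoM2 cells, with Tubb6, Tubb2b and 1 Tubb2a probe set lower to a smaller extent. Tubb3 (1415978_at) read 5.18 and 5.07 on the log2 scale in Sox9cKO replicates 1 and 2, against 7.88 and 8.53 in SmoM2 replicates 1 and 2. Both Sox9cKO arrays were below both SmoM2 arrays, and the gap between the genotypes was several times the gap within either. The means were 5.13 ± 0.08 in Sox9cKO and 8.20 ± 0.46 in SmoM2 cells (SD, n = 2 each), a log2 difference of -3.08 (SE 0.22), or 8.44-fold lower in Sox9cKO. Of all 18193 genes, 26 had a lower difference. The Sox9cKO values lay below the median signal of their arrays, 5.45 and 5.47, and a fold against so dim a reading may be compressed by background.

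Tubb6, the class V beta tubulin, which is expressed in many tissues, read 8.67 and 7.95 in Sox9cKO against 9.20 and 9.54 in SmoM2 cells at 1416431_at. The genotypes did not overlap, but the Sox9cKO arrays lay 0.72 apart, with replicate 2 the lower. The means were 8.31 ± 0.51 and 9.37 ± 0.24 (SD, n = 2 each), a log2 difference of -1.06 (SE 0.25), or 2.08-fold lower in Sox9cKO. At its other probe set, 1446353_at, Tubb6 ran the other way, with 6.03 and 5.89 in Sox9cKO against 5.59 and 5.80 in SmoM2 cells (log2 difference 0.27, SE 0.15). The 2 probe sets of Tubb6 therefore differed in direction, and 1446353_at read not far above the array medians of 5.45 to 5.48.

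Tubb2a and Tubb2b encode class II beta tubulins, which are abundant in brain, and lie next to each other in the genome. Tubb2b (1452679_at) read 7.64 and 8.33 in Sox9cKO against 8.43 and 9.20 in SmoM2 cells. The highest Sox9cKO array was just below the lowest SmoM2 array, and in each genotype replicate 2 was the brighter. Means of 7.98 ± 0.49 in Sox9cKO and 8.81 ± 0.55 in SmoM2 cells (SD, n = 2 each) gave a log2 difference of -0.83 (SE 0.31), 1.78-fold lower in Sox9cKO. A probe set annotated to Tubb2b together with the pseudogene Tubb2a-ps2, 1449682_s_at, read 5.61 and 6.20 in Sox9cKO against 6.57 and 7.33 in SmoM2 cells (log2 difference -1.04, SE 0.29), without overlap. Tubb2a read 9.59 and 10.10 in Sox9cKO against 10.35 and 10.81 in SmoM2 cells at 1427347_s_at, a suffix that marks a probe set matching more than 1 transcript. These arrays did not overlap either, and replicate 2 was again the brighter in each genotype. The means were 9.84 ± 0.36 in Sox9cKO and 10.58 ± 0.32 in SmoM2 cells (SD, n = 2 each), a log2 difference of -0.74 (SE 0.23), 1.67-fold lower in Sox9cKO. The other Tubb2a probe set, 1427838_at, overlapped between the genotypes, at 5.65 and 5.20 in Sox9cKO and 5.32 and 5.63 in SmoM2 cells (log2 difference -0.05, SE 0.20). These values lay around the array medians of 5.45 to 5.48.

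The replicate arrays differed in ways that touch these 4 genes. Tubb2a (1427347_s_at) was 0.51 higher in replicate 2 than in replicate 1 of Sox9cKO and 0.46 higher in SmoM2, and Tubb2b was 0.69 and 0.77 higher. The labelling controls and the Actb gap, given above, were lower in replicate 2 of each genotype as well, and their part in the result was not tested. Between arrays with the same replicate number, Tubb2b differed by -0.79 and -0.87 and Tubb2a by -0.77 and -0.71. Between arrays alike in Y-linked signal, the difference was -1.56 for the pair with it and -0.10 for the pair without it at Tubb2b, and -1.22 and -0.25 at Tubb2a. Tubb6 (1416431_at) differed by -0.86 and -1.25 in these pairs and by -0.52 and -1.59 between arrays with the same replicate number. The differences of Tubb2a, Tubb2b and Tubb6 thus varied with how arrays were set against each other. Tubb3 differed by -3.34 and -2.81 in the same pairs and by -2.70 and -3.46 in the pairs by replicate number.

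Tubb5, a beta tubulin expressed in most tissues, read nearly alike in both genotypes at 1 of its 2 probe sets. The values at 1416256_a_at were 12.42 and 12.41 in Sox9cKO against 12.50 and 12.42 in SmoM2 cells (log2 difference -0.05, SE 0.14). At 1455719_at, however, Tubb5 was somewhat higher in Sox9cKO cells, with 10.65 and 10.38 against 10.11 and 10.17 in SmoM2 cells (log2 difference 0.37, SE 0.15). The arrays of the genotypes did not overlap there, so the direction at Tubb5 depended on the probe set.

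**Figure D1:**
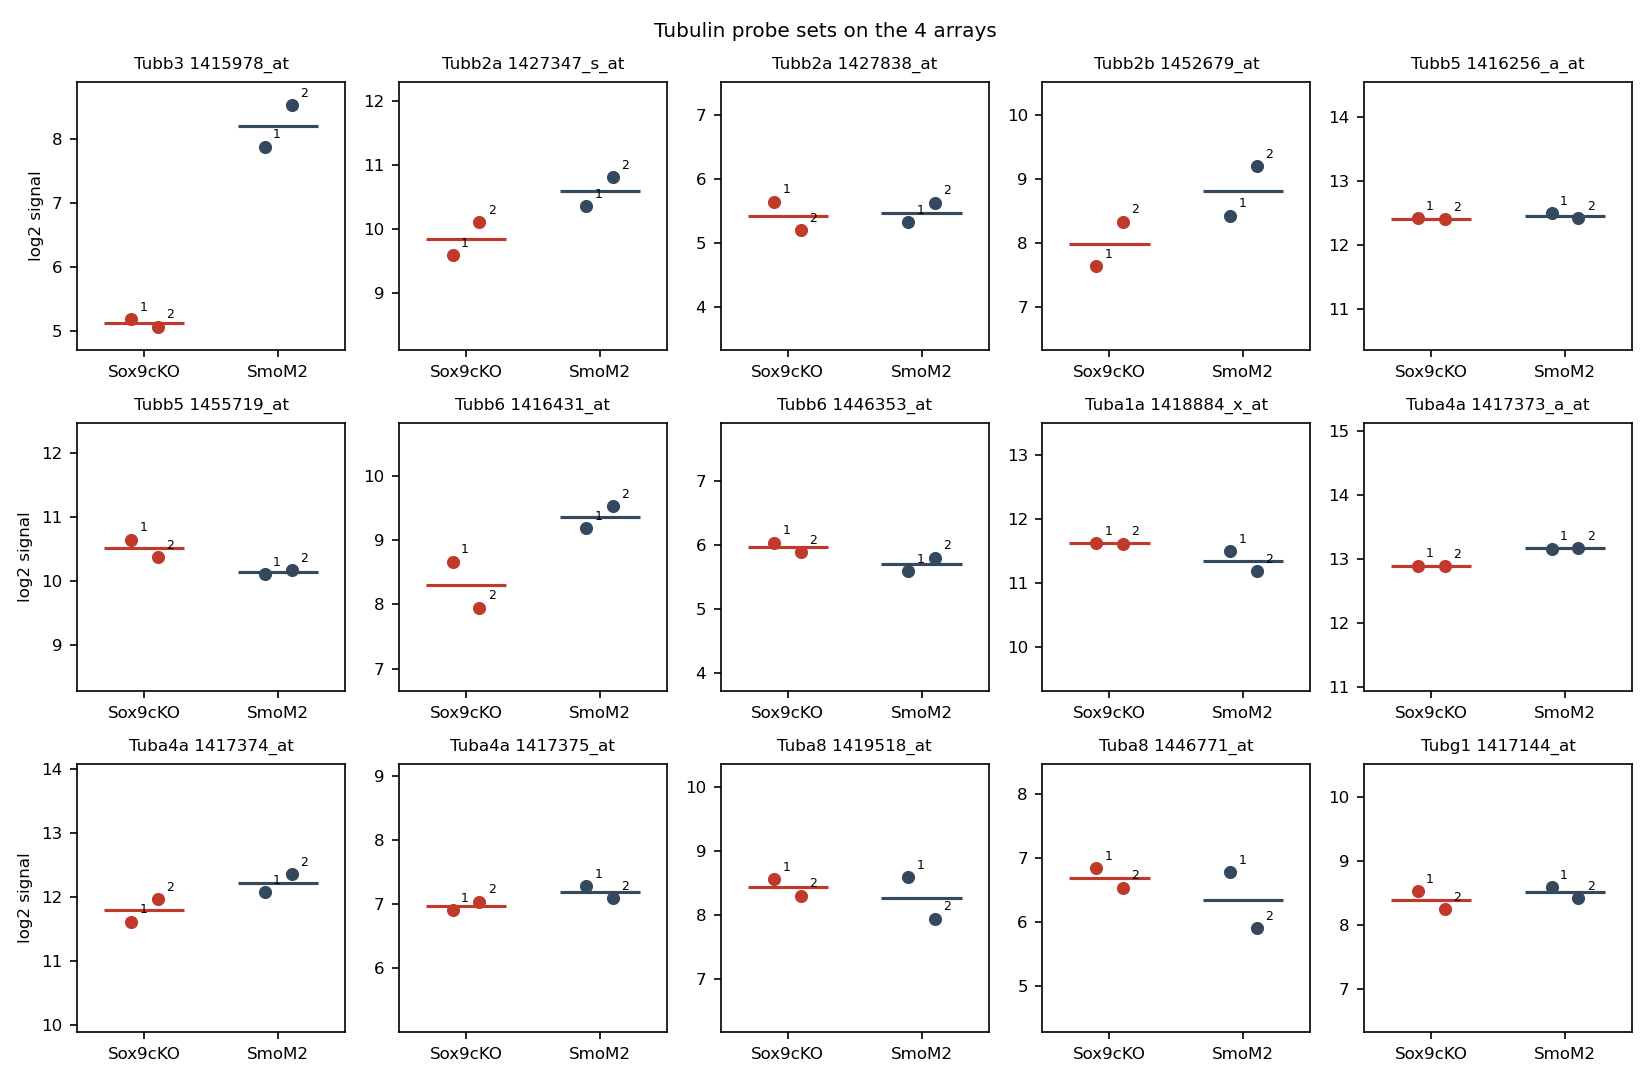
Log2 signal (vertical axis) of every probe set of the tubulin genes on each array, with points for the 2 Sox9cKO arrays left of the 2 SmoM2 arrays and a bar for each group mean. Tubb3 shows the widest separation, with Sox9cKO arrays at 5.18 and 5.07 and SmoM2 arrays at 7.88 and 8.53.

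The alpha tubulins lay within a narrow range of differences, from -0.43 to 0.35 over their 6 probe sets. Tuba1a, the main alpha tubulin of the developing brain, had only 1418884_x_at as a probe set of its own. It read 11.62 and 11.61 in Sox9cKO against 11.49 and 11.18 in SmoM2 cells (log2 difference 0.28, SE 0.16). Tuba4a, whose encoded tail lacks the terminal tyrosine of most other alpha tubulins, was lower in Sox9cKO at all 3 of its probe sets, each without overlap. It read 12.90 and 12.89 in Sox9cKO against 13.16 and 13.18 in SmoM2 cells at 1417373_a_at (log2 difference -0.27, SE 0.13). At 1417374_at it read 11.62 and 11.97 in Sox9cKO against 12.08 and 12.36 in SmoM2 cells (log2 difference -0.43, SE 0.18). There, replicate 2 was the brighter in each genotype. The third Tuba4a probe set, 1417375_at, read 6.91 and 7.04 in Sox9cKO against 7.29 and 7.10 in SmoM2 cells (log2 difference -0.22, SE 0.15).

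Tuba8, a divergent alpha tubulin known from muscle and testis, overlapped between the genotypes at both of its probe sets. It read 8.57 and 8.30 in Sox9cKO against 8.59 and 7.95 in SmoM2 cells at 1419518_at (log2 difference 0.17, SE 0.23). At 1446771_at it read 6.84 and 6.54 in Sox9cKO against 6.78 and 5.91 in SmoM2 cells (log2 difference 0.35, SE 0.28). The 2 SmoM2 arrays lay further apart at both probe sets than the genotype means. The probe set 1423846_x_at, annotated to Tuba1b and Gm5620 together, read 13.41 and 13.30 in Sox9cKO and 13.35 and 13.26 in SmoM2 cells (log2 difference 0.05, SE 0.14). Its arrays overlapped, and signal of Tuba1b and of the gene model Gm5620 cannot be told apart at it. A probe set shared by Tuba1a and Gm6682, 1433584_at, read between 4.58 and 4.83 and differed by -0.14. The 4 probe sets shared among Tuba1c and Gm6682 or among Tuba3a and Tuba3b differed by 0.04 to 0.25.

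Tubg1, which encodes the gamma tubulin of the nucleating ring complex, read 8.53 and 8.26 in Sox9cKO against 8.60 and 8.43 in SmoM2 cells (log2 difference -0.12, SE 0.16). Its arrays overlapped between the genotypes.

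Over the 15 probe sets, 10 differences were negative and 5 positive, with a median of -0.12 against 0.01 over all 45037 probe sets other than controls. The arrays of the genotypes did not overlap at 11 of the 15, with 8 lower and 3 higher in Sox9cKO, against 44.4% of all probe sets (21.8% lower and 22.6% higher). In the fit across all probe sets, 1 of the 15, that of Tubb3, passed the adjusted threshold of 0.05, against 3.82% of all probe sets (2.34% lower), and nothing is read from this count because the comparison chose the members. Tubb3 was likewise the 1 of 9 tubulins to pass among the 18193 genes, of which 6.19% passed. The gap between arrays of the same genotype, which played no part in the choice of the members, had a median over the tubulin probe sets of 0.27 in Sox9cKO and 0.31 in SmoM2, against 0.16 and 0.17 over all probe sets. These medians were not matched for signal level. Signals of different probe sets are not on a common scale, so the tubulins are not ordered by level.

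**Figure D2:**
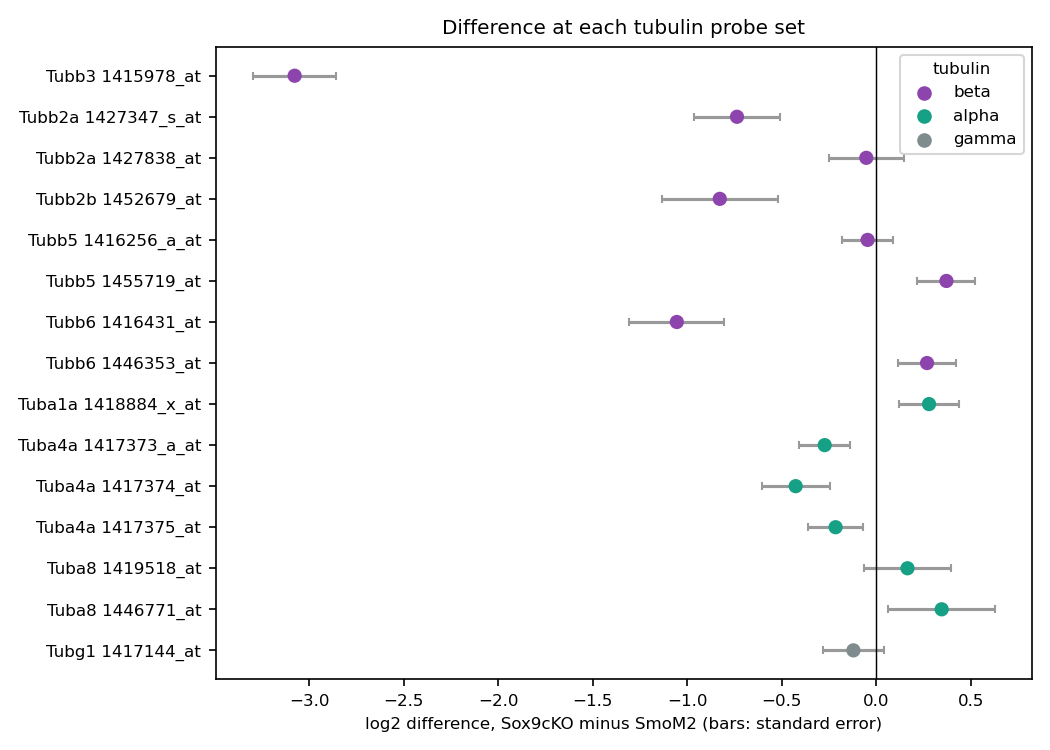
Log2 difference of Sox9cKO minus SmoM2 (horizontal axis) at each tubulin probe set, with bars of 1 standard error from limma and a line at 0. Tubb3 lies at -3.08, and the next lowest probe set is that of Tubb6 at -1.06.

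The genes whose profile over the 4 arrays was nearest that of Tubb3, after centring each gene on its mean, were Ifi202b, Gpc6, Egfl6, Emb and Prdm1, at Euclidean distances of 0.12 to 0.28 log2 units. Ifi202b, an interferon-inducible gene, read 5.85 and 5.77 in Sox9cKO against 8.42 and 9.18 in SmoM2 cells, a log2 difference of -2.99. Differences at the others were -2.95 for Gpc6, a glypican of the cell surface, -3.07 for Egfl6, a secreted matrix protein, -2.88 for Emb, the membrane protein embigin, and -3.28 for Prdm1, a transcriptional repressor. They were picked for this likeness, which is therefore a description. No other tubulin was among the nearest: 369 genes lay nearer to Tubb3 than Tubb6 did (distance 2.08), 580 nearer than Tubb2b (2.32) and 647 nearer than Tubb2a (2.39).

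**Figure D3:**
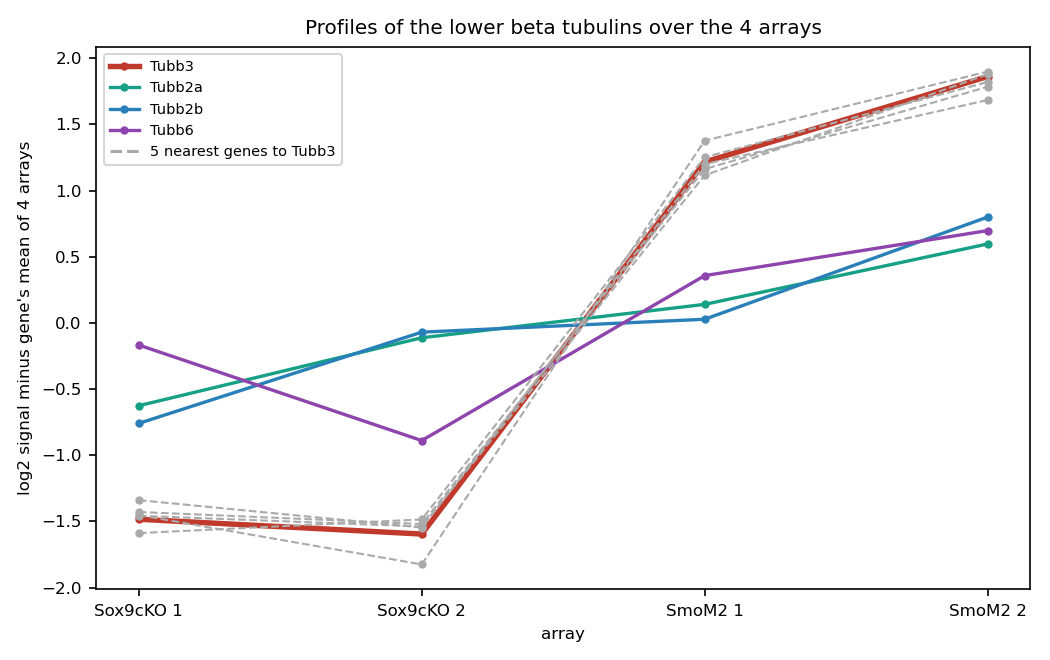
Log2 signal minus each gene's mean (vertical axis) on Sox9cKO replicates 1 and 2 and SmoM2 replicates 1 and 2 (horizontal axis), for Tubb3, its 5 nearest genes and Tubb6, Tubb2b and Tubb2a. The 5 nearest genes lie within 0.28 log2 units of Tubb3 in distance over the 4 arrays, and Tubb6, the closest tubulin, lies at 2.08.

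The nearest measured protein-coding genes on either side of each tubulin, in the gene order of RefSeq GRCm38.p6, were read as well, a choice made after the data were seen. The neighbours of Tubb3 did not pass: Mc1r, the melanocortin receptor, differed by 0.06 (SE 0.21, limma adjusted p = 0.927) and Def8 by 0.08 (SE 0.14, adjusted p = 0.849). Beside Tubb2a and Tubb2b, Bphl differed by 0.15 (adjusted p = 0.776) and Psmg4 by -0.04 (adjusted p = 0.952). Beside Tubb6, Cidea, which encodes a lipid droplet protein, fell in Sox9cKO, with 4.86 and 4.67 against 7.39 and 6.73 in SmoM2 cells (log2 difference -2.29, SE 0.22, adjusted p = 0.00174). Afg3l2 on the other side of Tubb6 did not pass (log2 difference -0.31, adjusted p = 0.296). Usp18, an interferon-induced protease beside Tuba8, rose in Sox9cKO (log2 difference 0.95, SE 0.17, adjusted p = 0.0213), a call lost without Sox9cKO replicate 2 (0.0846), SmoM2 replicate 1 (0.0554) or SmoM2 replicate 2 (0.134). No other measured neighbour outside the members passed.

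Genes that work with tubulin were read in 9 lists of 186 genes, of which 174 were measured. Of these, 12 rose and 8 fell in Sox9cKO, and the median difference was 0.06, against 2.66% of all genes called higher, 3.53% called lower and a median over all genes of 0.02. The calls lay mostly among proteins that bind the microtubule lattice and among genes of dividing cells. Several rested on a narrow margin, as given beside them.

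Over all 18193 genes, 3234 had an unadjusted p under 0.05 by limma, the background for the counts at that level below. At the probe set that stood for each gene, none of the 7 other tubulins measured passed limma's test, at an unadjusted p under 0.05 either, and their median difference was 0.13. Tube1 (0.32, adjusted p = 0.438), Tubd1 (0.23, adjusted p = 0.537) and Tubg2 (0.18, adjusted p = 0.622), which encode the epsilon, delta and second gamma tubulin, and Tubb1 (0.13, adjusted p = 0.778), the beta tubulin of platelets, had the smallest p-values. Of their other probe sets, 1437942_x_at of Tube1 was higher in Sox9cKO by 0.71 (SE 0.20) without overlap, with an unadjusted p of 0.00873 and an adjusted p of 0.125 in limma's fit over probe sets. Genes for the chaperones and cofactors that fold tubulin gave no call by limma among 23 measured, with 1 at an unadjusted p under 0.05 and a median of 0.00. The prefoldin subunits Pfdn2 (-0.33, adjusted p = 0.254) and Vbp1 (0.19, adjusted p = 0.595) and the cofactors Tbce (0.28, adjusted p = 0.354) and Tbcd (0.27, adjusted p = 0.501) stood first by p. Of 19 nucleation genes, which act with gamma tubulin, none passed limma's test and 2 had an unadjusted p under 0.05, with a median of 0.10. The ring complex subunits Tubgcp4 (0.47, adjusted p = 0.137), Tubgcp2 (0.37, adjusted p = 0.268) and Tubgcp3 (0.34, adjusted p = 0.352) and the augmin subunit Haus3 (0.19, adjusted p = 0.546) led that list.

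Among enzymes that modify tubulin, 1 of 20 measured genes rose and 1 fell, with a median of -0.00. Ttll7, a ligase that adds glutamate chains to beta tubulin, read 8.83 and 9.17 in Sox9cKO against 7.30 and 6.94 in SmoM2 cells (log2 difference 1.88, SE 0.18, limma adjusted p = 0.00174). Both Sox9cKO arrays were well above both SmoM2 arrays, the opposite direction to Tubb3, and the mean over its probe sets gave a difference of 1.02. Ttll12, another member of the ligase family, fell in Sox9cKO, with 8.27 and 8.18 against 9.13 and 8.82 in SmoM2 cells (log2 difference -0.76, SE 0.16, adjusted p = 0.0342). That call was lost on leaving out any 1 array (adjusted p of 0.0621 to 0.169) and with the mean of its probe sets (adjusted p = 0.0949). Ttll3 (-0.30, adjusted p = 0.315) and Svbp (-0.26, adjusted p = 0.481), the partner of the detyrosinating vasohibins, did not pass.

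Of the 25 lattice-binding proteins measured, 2 rose and 4 fell, with a median of -0.06. Map2, a dendritic protein that stabilises microtubules in neurons, read 7.11 and 8.16 in Sox9cKO against 4.65 and 5.55 in SmoM2 cells (log2 difference 2.53, SE 0.39, adjusted p = 0.0107). The genotypes did not overlap although the arrays within each lay about 1 log2 unit apart, and without SmoM2 replicate 1 the call was lost (adjusted p = 0.0740). Its other 3 probe sets read between 4.01 and 4.69 and were higher in Sox9cKO by 0.37 to 0.46, and the mean over all 4 gave a difference of 0.94. Map1b, which acts in growing axons, rose as well (0.82, SE 0.13, adjusted p = 0.0132). Camsap3, which caps microtubule minus ends in epithelial cells, fell in Sox9cKO to 7.04 and 7.12, against 8.18 and 8.35 in SmoM2 cells (log2 difference -1.19, SE 0.14, adjusted p = 0.00351). Map4, the widely expressed stabiliser (-0.80, SE 0.14, adjusted p = 0.0167), Map6, a stabiliser of cold-resistant microtubules (-0.83, SE 0.17, adjusted p = 0.0301), and Mtus1 (-0.93, SE 0.20, adjusted p = 0.0435) also fell. Map1b, Map4, Map6 and Mtus1 each lost the call without either SmoM2 array and without 1 Sox9cKO array, with adjusted p up to 0.209. Map1b was also lost with the mean of its probe sets (0.106) and Mtus1 after quantile normalization (0.0567).

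Plus-end proteins had 2 genes that fell among 15 measured and a median of -0.03. Macf1, which links microtubule tips to actin, read 9.73 and 9.80 in Sox9cKO against 10.67 and 10.93 in SmoM2 cells (log2 difference -1.03, SE 0.15, adjusted p = 0.00804). Mapre2, an end-binding protein, fell in Sox9cKO (-0.99, SE 0.22, adjusted p = 0.0439). Without SmoM2 replicate 2 neither passed, at adjusted p = 0.0623 for Macf1 and 0.187 for Mapre2, and Mapre2 was also lost without SmoM2 replicate 1 (0.194) and without Sox9cKO replicate 1 (0.0985). Mapre2 missed the threshold as well after quantile normalization (0.0523), with the mean of its probe sets (0.0626) and without probe sets of suffix _x_at, _s_at or _a_at (0.266). Ckap5 (0.48, adjusted p = 0.154) and Clip1 (-0.48, adjusted p = 0.204) did not pass.

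Among destabilising and severing proteins, 2 of 15 measured rose, with a median of 0.19. They were Kif2c, a kinesin that depolymerises microtubules at the mitotic spindle (0.85, SE 0.14, adjusted p = 0.0158), and Katna1, a subunit of the severing enzyme katanin (0.68, SE 0.14, adjusted p = 0.0325). Katna1 did not pass when any 1 of the 4 arrays was left out (adjusted p of 0.0807 to 0.169), and Kif2c passed without SmoM2 replicate 1 but not without the other arrays (0.0509 to 0.103) or at a probe set without such a suffix (0.173). Stmn1, the tubulin-sequestering stathmin, was higher by 0.58 (adjusted p = 0.0512) and Kif18a by 0.60 (adjusted p = 0.0719). Stmn1 passed with an intensity trend in the variance prior (0.0195), without dim genes (0.0420), with the mean of its probe sets (0.0261) and without the suffixed probe sets (0.87, adjusted p = 0.0374). Of 37 transport motor genes, 1 rose and 1 fell, with a median of 0.04. Kif26b, an atypical kinesin, fell in Sox9cKO to 5.55 and 6.00, against 8.87 and 8.19 in SmoM2 cells (log2 difference -2.75, SE 0.25, adjusted p = 0.00127), the lowest difference in these 9 lists. Nde1, a dynein regulator (0.71, SE 0.13, adjusted p = 0.0223), rose but did not pass when any 1 of the 4 arrays was left out (0.0685 to 0.114). Kif5c (-0.65, adjusted p = 0.139) and Kif3c (0.36, adjusted p = 0.228) did not pass.

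**Figure D4:**
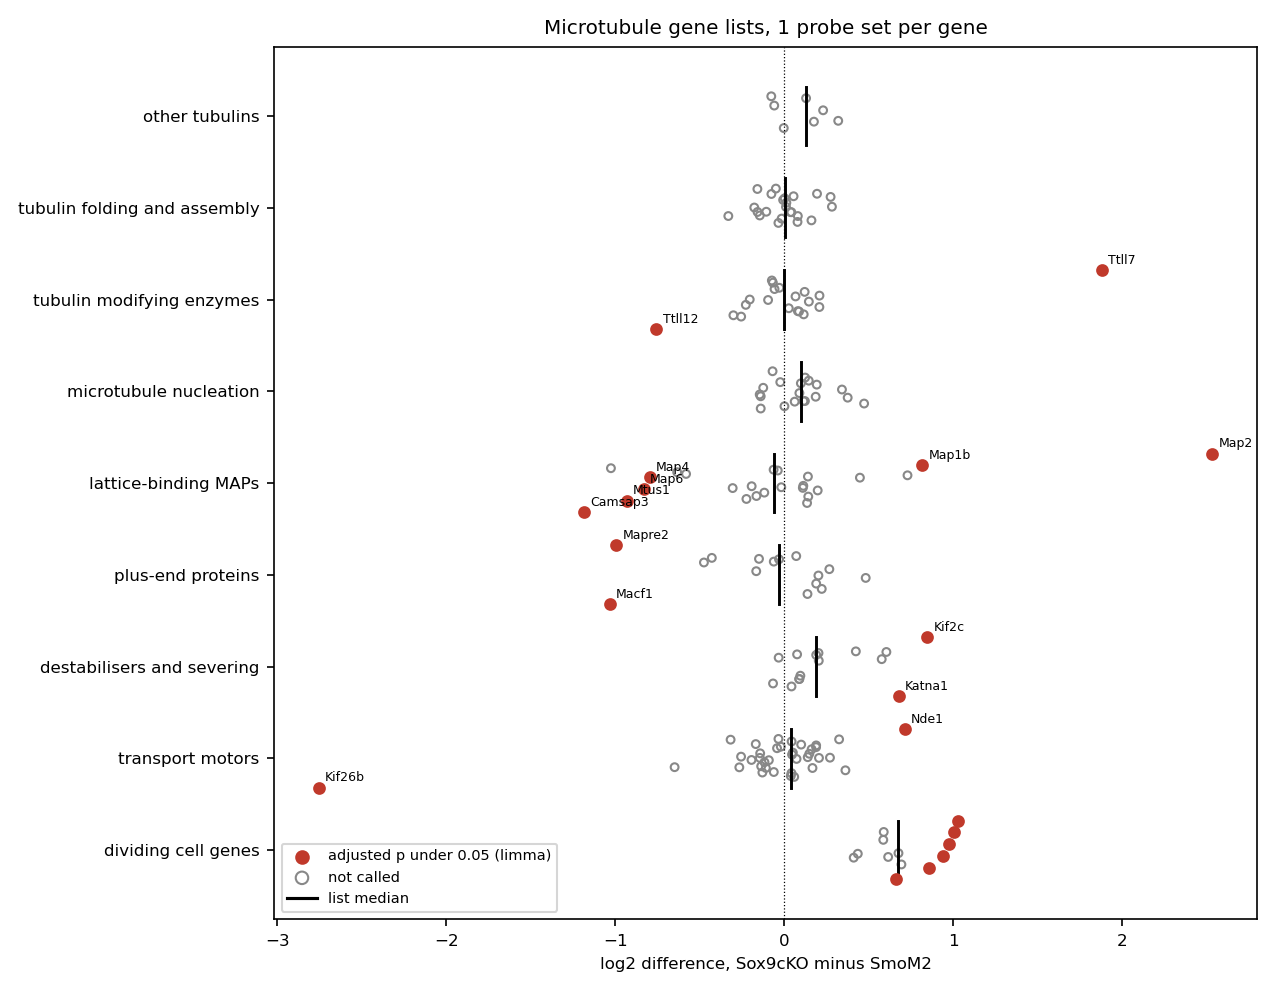
Log2 difference of Sox9cKO minus SmoM2 (horizontal axis) of each measured gene in 9 lists of genes that work with tubulin (rows), with genes that passed limma's adjusted threshold of 0.05 filled, and named outside the dividing cell list, and the list median drawn. Ttll7 at 1.88, Map2 at 2.53 and Kif26b at -2.75 lie furthest from 0, and all 13 genes of dividing cells lie above 0.

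Of 13 genes of dividing cells measured, 6 rose in Sox9cKO and none passed in the other direction, all 13 differences were positive, and the median was 0.68. The list's mean signal was 9.73 and 9.60 in Sox9cKO against 9.08 and 8.80 in SmoM2 cells, so the genotypes did not overlap. The 6 were Kif11 (0.98, adjusted p = 0.00603), Mki67 (0.94, adjusted p = 0.0110), Nusap1 (1.00, adjusted p = 0.0148), Aurkb (1.03, adjusted p = 0.0282), Top2a (0.66, adjusted p = 0.0367) and Cenpe (0.86, adjusted p = 0.0448). Without SmoM2 replicate 2 none of the 13 passed, with adjusted p from 0.0519 for Kif11 to 0.218 for Cenpe among the 6. Top2a was lost when any 1 array was left out (0.0698 to 0.164), Cenpe also without Sox9cKO replicate 1 (0.165) and SmoM2 replicate 1 (0.0743), and Aurkb without Sox9cKO replicate 1 (0.102). Mki67 missed the threshold without SmoM2 replicate 1 (0.0527) and Nusap1 without Sox9cKO replicate 2 (0.0507). With other probe sets or after quantile normalization, Top2a, Cenpe, Kif11 and Nusap1 missed the threshold too (0.0512 to 0.0892). The share of this difference in the tubulin values was not tested.

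Since Tubb3 marks neurons, markers of other cell types were read beside it. Of 14 neuronal markers, the synaptic protein gene Snap25 rose in Sox9cKO (1.53, adjusted p = 0.0046) and none fell. The other Snap25 probe set differed by 0.09 (adjusted p = 0.845), and the mean of the 2 gave 0.81. The summed signal of the 14 markers was 8.77 and 8.71 in Sox9cKO against 8.68 and 8.65 in SmoM2 cells on the log2 scale. It includes Snap25, at 5.13 and 5.62 in Sox9cKO against 3.73 and 3.96 in SmoM2 cells, and was not computed without it. No marker read above 6.02, the highest value of Rbfox3, a nuclear protein of neurons. Of the 14 differences, 6 were positive and 8 negative, with a median of -0.02. Of 10 Merkel cell markers, Sox2 fell, with 3.98 and 3.15 in Sox9cKO against 6.72 and 6.81 in SmoM2 cells (log2 difference -3.20, SE 0.26, adjusted p = 0.000831), while the defining markers Atoh1 (4.22 to 4.54) and Krt20 (4.03 to 4.18) were dim on every array. The Merkel cell sum was 8.75 and 8.29 in Sox9cKO against 8.77 and 8.77 in SmoM2 cells.

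The 10 melanocyte markers gave no call by limma, with 1 at an unadjusted p under 0.05 and all 10 higher in Sox9cKO, and their sum was 9.52 and 9.89 in Sox9cKO against 9.42 and 9.36 in SmoM2 cells. Of the 5 Schwann cell markers measured none passed, adjusted or not. Of 11 markers of hair follicle sheath and cortex 7 rose, among them Krt75 (5.22, SE 0.47, adjusted p = 0.00126) and Krt25 (3.24, SE 0.25, adjusted p = 0.000713), and their sum was 12.86 and 11.98 in Sox9cKO against 10.20 and 10.03 in SmoM2 cells. Among 8 fibroblast markers Dcn alone passed and rose (3.66, adjusted p = 0.000446), 5 of the 8 differences were positive and the median was 0.14. Dcn itself, at 12.09 and 12.78 in Sox9cKO against 8.85 and 8.70 in SmoM2 cells, made up most of the fibroblast sums of 12.18 and 12.84 in Sox9cKO against 9.55 and 9.36 in SmoM2 cells. Among 8 Langerhans and myeloid markers H2-Aa rose (1.87, adjusted p = 0.00102, or 0.96 as the mean of its probe sets), with sums of 8.86 and 8.80 against 8.34 and 8.11 in SmoM2 cells. Among 6 T cell markers Thy1 alone passed and rose (1.99, adjusted p = 0.000831), 5 of the 6 differences were positive and the median was 0.15. The T cell sums were 8.43 and 8.60 in Sox9cKO against 7.996 and 7.90 in SmoM2 cells. They include Thy1, at 7.01 and 7.22 in Sox9cKO against 5.26 and 4.99 in SmoM2 cells, and were not computed without it. By limma, markers of endothelium (6 measured), muscle (6), erythroid cells (2) and basal keratinocytes (7) gave no call, and 0, 1, 1 and 4 of them had an unadjusted p under 0.05. Of all 18193 genes, 3234 were at that level. The part of other cell types, and of the hair follicle genes in particular, in the tubulin differences was not tested.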

How the data were processed

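The authors deposited log2 signals, 1 per probe set and array, from Affymetrix 3' arrays of 4 sorted cell samples, 100 ng of RNA each per the labels. How they were normalized is not stated in the labels, and the submitters' processing notes name R 2.14.0 without its role. The scale was read from the values, which were used as deposited. A shift common to most genes may have been taken out earlier. No read depth exists for arrays, and their number limits precision.

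Of 45101 probe sets, 64 controls were left out. The platform annotation gave 1 symbol for 34958 and several for 932. The brightest single-symbol probe set over all arrays stood for a gene. Sox9cKO was compared with SmoM2 in R 4.3.3 with limma 3.58.1 (lmFit, eBayes, two-sided, 7.17 degrees of freedom), once over genes and once over probe sets, with Benjamini-Hochberg adjustment and a threshold of 0.05. The procedure was tested on simulated data. Standard errors of tubulin probe sets come from the fit over probe sets, and those of other genes, Sox9 aside, from the fit over genes.

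The tubulins, the 9 pathway lists and the 12 marker lists were chosen with earlier results of these data known. Named are all tubulin probe sets, the 4 genes of smallest p in each pathway list, every pathway gene that passed, the 5 genes nearest Tubb3, neighbouring genes, and selected markers. Alternatives were the variance prior, a filter on dim genes, the probe sets used, quantile normalization, the replicate block and leaving out each array.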

Additional observations from a re-analysis of the deposited data

How the results depend on the processing

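With 2 arrays per genotype, small differences could not be resolved, and leaving out an array left 1 array assumed to vary like those of the other genotype. Of 18193 genes, 1126 passed; 1919 passed with the replicate number as a block and 534 to 900 without 1 array. Of 45037 probe sets, 1720 passed, 3474 with the block and 1021 to 1142 without 1 array. Among the 15 tubulin probe sets, 1 passed in the reported fit, 4 passed with the block (7.71% of all probe sets) and 2 without Sox9cKO replicate 1 (2.54% of all probe sets), counts from which nothing is read since this comparison chose the members. Deviations of same-numbered arrays had r = 0.09 over all genes, and the reported fit did not pair arrays by replicate number. The labelling controls, the Actb gap, Tubb2a (1427347_s_at) and Tubb2b nonetheless moved the same way with replicate number in both genotypes.

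The log2 difference stayed between -3.40 and -2.76 for Tubb3 without any 1 array, and between -0.99 and -0.48 for Tubb2a, -1.21 and -0.44 for Tubb2b, -0.09 and -0.01 for Tubb5, -1.42 and -0.69 for Tubb6, 0.12 and 0.43 for Tuba1a and -0.28 and -0.27 for Tuba4a. It turned sign for Tuba8 without SmoM2 replicate 2 (-0.16, otherwise up to 0.49) and for Tubg1 without Sox9cKO replicate 2 (0.02, otherwise down to -0.26). Since another probe set then stands for the gene, leaving out probe sets of suffix _x_at, _s_at or _a_at gave a log2 difference of -0.053 for Tubb2a, 0.37 for Tubb5 and -0.43 for Tuba4a. Tuba1a had only a suffixed probe set of its own, so that run did not cover it. Averaging the probe sets gave 0.16 for Tubb5, -0.39 for Tubb6 and -0.30 for Tuba4a, and quantile normalization gave -0.26 for Tuba4a.

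Counts of pathway genes that passed also moved, and apart from genes that a run left out the cause was not tested. With the mean of probe sets, 1 modifying enzyme, 1 nucleation gene (Haus2, 0.82) and 1 plus-end gene passed. Haus2 turned sign there, since it differed by -0.15 at the probe set that stood for it in the reported fit. Without the suffixed probe sets, 1 folding gene (Txndc9, -0.73), 1 plus-end gene and 1 motor passed. Nde1, Camsap3 and Aurkb had only suffixed probe sets, so that run did not test them. After quantile normalization 1 plus-end gene passed. With the replicate block, 4 destabilisers (Stmn1 among them, adjusted p = 0.0289) and 11 dividing cell genes passed. Without 1 array, 1 modifying enzyme, 1 to 6 lattice proteins, 0 to 2 plus-end genes, 0 to 1 destabilisers, 1 motor and 0 to 4 dividing cell genes passed. Ttll7 (1.02 to 2.06) and Kif26b (-3.09 to -2.42) passed under each alternative run, and Camsap3 (-1.27 to -1.10) under each that tested it.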
